A study of Mus musculus and Ictidomys tridecemlineatus with 36 samples.

Results

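The chromatin around *Rxrg* was described in 13-lined ground squirrel (13LGS) and mouse retina from 10 lists of CUT&RUN peaks. In mouse, a peak belonged to the *Rxrg* region where it overlapped the gene or the 250 kb on either side, which is chr1:167348384-167889623 of GRCm38 (541 kb). In 13LGS, the region ran between the outermost of the candidate *cis*-regulatory elements that the study assigned to *Rxrg* in its supplementary material, from 101453772 to 102349515 on Itri9 of the HiC_Itri_2 assembly (896 kb). These rules gave 165 peaks in 13LGS and 50 in mouse, 215 of the 532904 peaks in all lists. The element set held 74 elements in 13LGS and 15 in mouse, of which 11 mouse elements lay inside the mouse region and 4 lay farther upstream. Positions count from 1, distances are to the centre of the elements at the transcription start site (TSS), and no position was carried from one assembly to the other. Upstream and downstream in 13LGS rest on an inferred plus strand of *Rxrg*, since its gene body elements have higher coordinates than its TSS elements, and no 13LGS annotation was at hand to check it.

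CUT&RUN releases and sequences the DNA around an antibody bound in isolated nuclei. The retinas were snap-frozen at P5 in 13LGS and at P2 in mouse, and each of the 2 biological replicates of a species pooled retinas, of 2 animals in 13LGS and of 3 in mouse. The antibodies were against H3K4me3, H3K27ac, H3K4me1, Otx2 and Neurod1, with IgG as control, in 16 libraries from 13LGS and 20 from mouse. In 13LGS there was 1 library for each histone mark, from 1 biological replicate. There were 4 for Neurod1, 6 for Otx2 (4 with the R&D antibody and 2 with the Atlas antibody) and 3 for IgG. In mouse there were 2 libraries for each histone mark and for IgG, 4 for Neurod1 and 8 for Otx2 (4 with each Otx2 antibody). The labels name no genotype or treatment, and because age and species change together, their effects cannot be told apart. Whole retina was used, so peaks from few cells and weak peaks from many cells cannot be told apart either. Each list is 1 joint call per target and species and gives a peak 1 fold enrichment over IgG and 1 −log10 q-value for all its libraries. There was therefore no spread between replicates, no test between species was made, and read depth is unknown. To set peaks of different lists side by side, each fold enrichment is also given as the share of its own list that was lower. In the mouse lists, H3K4me3 peaks lay at the TSS of 5 of 5 retinal marker genes (*Otx2*, *Crx*, *Rax*, *Pax6* and *Neurod1*) and of 0 of 5 genes of other tissues (*Alb*, *Myod1*, *Hba-a1*, *Cdx2* and *Ins2*).

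*Rxrg* encodes retinoid X receptor gamma, a nuclear receptor that binds DNA as a dimer, often with another nuclear receptor such as the thyroid hormone receptor encoded by *Thrb*. In the retina it is a marker of cone photoreceptors and takes part in setting which opsin a cone expresses. H3K4me3 marks promoters, H3K4me1 marks enhancers and the flanks of promoters, and H3K27ac marks those that are active. Otx2 is a homeodomain protein required for photoreceptor fate, and Neurod1 is a basic helix-loop-helix (bHLH) protein of differentiating photoreceptors.

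The mouse sequences on which the results turn are shown from the GRCm38 reference, all on the plus strand, which is also the strand of *Rxrg*. Capitals mark matches to TAATCC, the core bound by Otx2 and Crx, to the bHLH motifs CAGATG and CAGCTG, and to AGGTCA, the core of nuclear receptor elements, each searched on both strands. The first sequence, chr1:167438429-167438728, is centred on the summit of the strongest Otx2 peak of the region. It lies 160.4 kb upstream of *Rxrg*, between genes, and is the only place in the mouse region with Otx2, Neurod1 and H3K27ac together. The RefSeq promoter table gives 2 *Rxrg* starts, and the 250 bases before each are chr1:167598112-167598361 and chr1:167618015-167618264. The next pair, chr1:167802985-167803185 and chr1:167816877-167817077, surrounds Otx2 summits in introns of *Lmx1a*, the neighbouring gene downstream. The last, chr1:167505608-167505808, surrounds an H3K27ac summit with no factor peak, 93.3 kb upstream and between genes.
Distal enhancer: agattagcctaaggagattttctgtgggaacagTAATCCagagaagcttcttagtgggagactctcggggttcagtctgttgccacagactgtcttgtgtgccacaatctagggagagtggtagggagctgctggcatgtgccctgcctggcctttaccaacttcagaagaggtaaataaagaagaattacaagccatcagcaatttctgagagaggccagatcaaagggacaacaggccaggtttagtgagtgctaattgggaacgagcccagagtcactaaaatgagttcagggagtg
Rxrg start 1: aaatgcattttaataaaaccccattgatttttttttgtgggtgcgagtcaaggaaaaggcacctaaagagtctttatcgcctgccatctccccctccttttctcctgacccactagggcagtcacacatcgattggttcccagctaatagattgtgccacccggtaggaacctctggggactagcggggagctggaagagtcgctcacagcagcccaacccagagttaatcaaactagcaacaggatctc
Rxrg start 2: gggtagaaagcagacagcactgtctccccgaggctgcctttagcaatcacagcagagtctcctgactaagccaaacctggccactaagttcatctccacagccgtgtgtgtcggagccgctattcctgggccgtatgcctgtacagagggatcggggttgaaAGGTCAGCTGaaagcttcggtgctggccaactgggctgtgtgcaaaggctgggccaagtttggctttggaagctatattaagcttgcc
Lmx1a intron site 1: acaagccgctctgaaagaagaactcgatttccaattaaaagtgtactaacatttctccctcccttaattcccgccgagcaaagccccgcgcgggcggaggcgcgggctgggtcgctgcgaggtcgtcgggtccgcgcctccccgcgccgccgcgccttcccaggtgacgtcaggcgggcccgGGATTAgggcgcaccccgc
Lmx1a intron site 2: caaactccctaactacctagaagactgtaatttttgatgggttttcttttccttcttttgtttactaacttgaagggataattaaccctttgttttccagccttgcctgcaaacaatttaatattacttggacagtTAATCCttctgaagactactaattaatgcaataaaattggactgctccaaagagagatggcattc
Acetylated site: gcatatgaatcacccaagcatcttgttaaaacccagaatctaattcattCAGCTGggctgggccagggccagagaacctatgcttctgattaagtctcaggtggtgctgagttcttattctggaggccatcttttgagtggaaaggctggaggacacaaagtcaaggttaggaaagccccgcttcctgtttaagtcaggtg

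In 13LGS, H3K27ac was called along the *Rxrg* region on both sides of the gene, whereas in mouse it was called at 3 places. There were 44 H3K27ac peaks in 13LGS (4.91 per 100 kb) and 4 in mouse (0.739 per 100 kb), a ratio of 6.65, while the complete lists held 93999 and 62930 peaks, a ratio of 1.49. Neurod1 showed the same order, with 10 peaks in 13LGS (1.12 per 100 kb) and 1 in mouse (0.185 per 100 kb), although both Neurod1 lists were of nearly equal length (4658 and 4744). For H3K4me1 the counts were 88 and 34, or 9.82 and 6.28 per 100 kb. For H3K4me3 they were 8 and 3, or 0.893 and 0.554 per 100 kb. These are ratios of 1.56 and 1.61, where the complete lists had ratios of 1.04 and 1.28. Within 100 kb on each side of the TSS elements the H3K4me3 ratio was 1.00. Otx2 had 15 peaks in 13LGS (1.67 per 100 kb) and 8 in mouse (1.48 per 100 kb), a ratio of 1.13 whose direction depended on the measure. Past a −log10 q of 5 the ratio was 0.906 and by bases covered 0.735, while with lists cut to equal length it was 1.51. The complete Otx2 lists had a ratio of 0.961.

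The regions differ in length and in how they were bounded, so equal windows were counted too. Within 250 kb on each side of the TSS elements there were 32 H3K27ac peaks in 13LGS and 4 in mouse, and within 100 kb there were 24 and 3. The bases under H3K27ac peaks within 100 kb were 27512 in 13LGS and 1150 in mouse. Neurod1 had 8 peaks within 250 kb in 13LGS and 1 in mouse, and 5 and 0 within 100 kb. Otx2 had 12 and 8 within 250 kb, and 5 and 3 within 100 kb. Absence of a peak means only that none was called at the authors' threshold. The 13LGS H3K27ac list rests on 1 library and the mouse list on 2, and the part of library number and depth in this difference was not tested. The paper describes the 13LGS retina as cone-dominant and that of mouse as rod-dominant. Cell composition and species therefore cannot be told apart in whole retina, and the part of composition was not tested either.

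**Figure D1:**
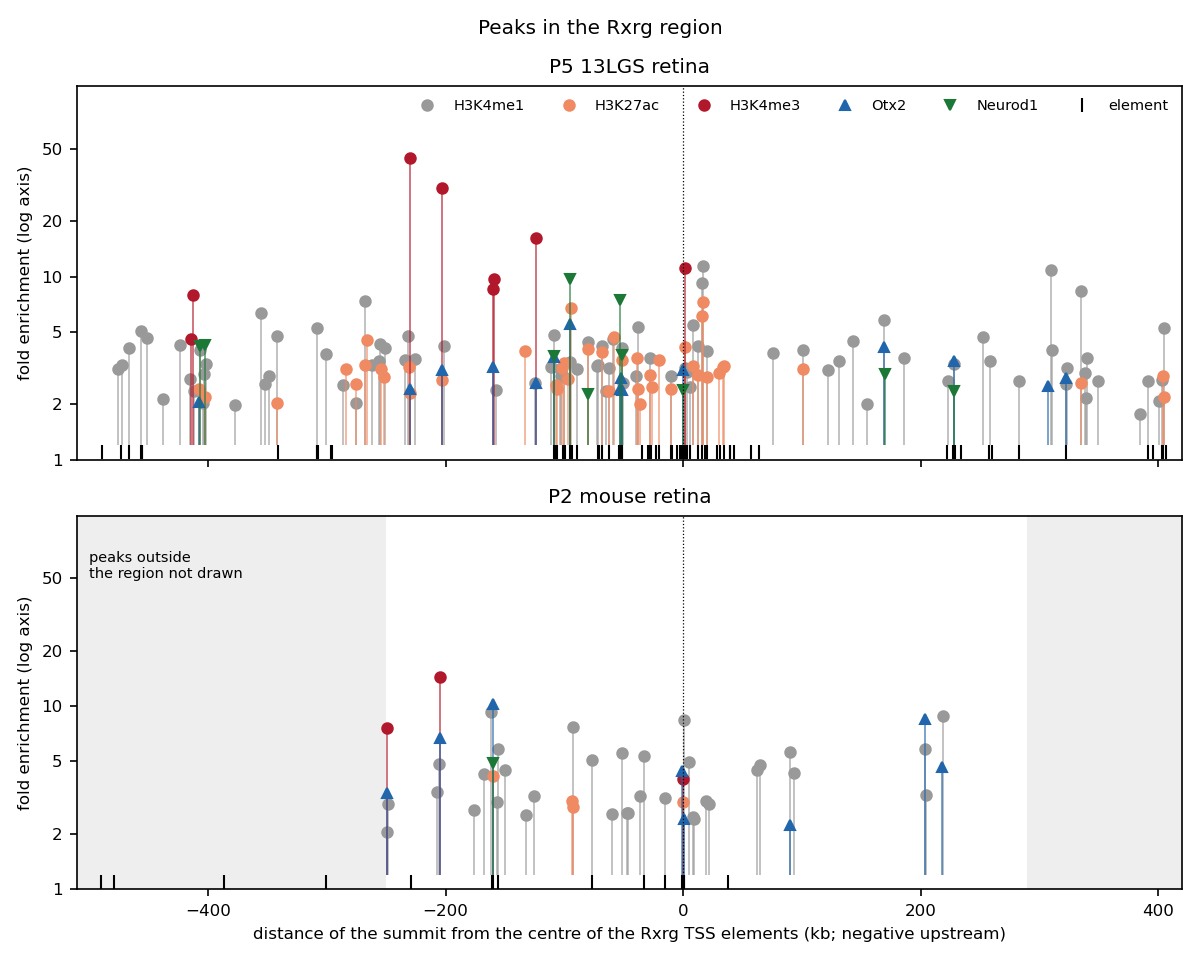
Every peak of the *Rxrg* region in P5 13LGS (top) and P2 mouse (bottom), plotted by the distance of its summit from the TSS elements (kb, negative upstream) and its fold enrichment over IgG (log axis), with elements as black ticks. H3K27ac peaks (orange) number 44 in 13LGS and 4 in mouse. No mouse H3K27ac summit lies downstream of the centre of the TSS elements, where 13LGS has 13. That 13 includes the 13LGS promoter peak (1.25 kb downstream), while the mouse promoter peak counts as upstream (0.164 kb).

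Position along the locus also differed. The 13LGS H3K27ac peaks were most frequent next to the gene, with 7 in the first 50 kb upstream, 7 in the next 50 kb and 9 in the first 50 kb downstream. Farther downstream they became rare, with none between 50 and 100 kb and 1 between 100 and 150 kb. Upstream, none lay between 150 and 200 kb, but a further group had summits from 283.9 to 251.4 kb upstream. The 4 mouse H3K27ac peaks were all upstream or at the promoter. H3K4me1 was called on both sides of the gene in both species, at 53 peaks upstream and 35 downstream in 13LGS and at 21 and 13 in mouse. The mouse H3K4me1 peaks left a gap of 100 kb, with none between 100 and 200 kb downstream.

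At the promoter, mouse *Rxrg* had a weak H3K4me3 peak and 13LGS *Rxrg* a peak of ordinary strength. The mouse peak, 167598432 to 167599916, had a −log10 q of 5.69 and a fold enrichment of 3.98, and 13.4% of the list was lower. The 13LGS peak, 101942566 to 101945038, had a −log10 q of 72.3 and a fold enrichment of 11.1, and 45.9% of its list was lower. H3K27ac followed with a fold enrichment of 3.00 over 471 bp in mouse (29.5% of the list lower) and 4.12 over 2573 bp in 13LGS (79.2% lower). H3K4me1 went the other way, at 8.39 over 4919 bp in mouse (82.8% lower) and 3.18 over 3069 bp in 13LGS (32.8% lower). So the mark of promoters ranked higher in 13LGS and the mark of enhancers and promoter flanks ranked higher in mouse.

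Otx2 was called at the *Rxrg* promoter in both species and Neurod1 in 13LGS. The stronger mouse Otx2 peak, 167598238 to 167598988, had a fold enrichment of 4.41 (70.5% of the list lower), and its summit at 167598362 lay 22 bp before the GENCODE TSS, directly after the last base of the Rxrg start 1 sequence shown. The weaker mouse peak, 167599499 to 167599991, reached 2.41 with its summit in an intron (8.26% lower). In 13LGS, Otx2 reached 3.07 at 101943014 to 101943739 (46.9% lower) and Neurod1 2.41 at 101943005 to 101943323 (6.70% lower), with summits 27 bp apart. No motif of the 4 searched occurred in the 250 bases before start 1, but the stronger mouse Otx2 peak reached past that stretch. That peak held a CAGCTG match 123 bp from its summit and a TAATCC match more than 150 bp from it. The 250 bases before start 2 held AGGTCA and, overlapping it by 2 bases, CAGCTG. Over all 32851 promoters of the table, 14.0% held AGGTCA, 13.0% CAGCTG, 14.4% CAGATG and 6.25% TAATCC in the same stretch. The only peak near start 2 was a narrow H3K4me1 peak, 167618543 to 167618746, of 3.02 (20.4% of the list lower).

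The mouse enhancer 160.4 kb upstream was the strongest factor site of the region. Its Otx2 peak, 167438084 to 167439498, had a −log10 q of 69.0 and a fold enrichment of 10.3, and 97.6% of the Otx2 list was lower. Its Neurod1 peak, 167438483 to 167439089, was the only one of the mouse region, at 4.92 with a −log10 q of 25.6 (72.7% lower). H3K27ac reached 4.17 over 167438481 to 167439504 (78.6% lower), and an H3K4me1 peak of 9.29, 5876 bp wide, covered the site and was wider than 98.1% of its list. The Otx2 and Neurod1 summits were 192 bp apart, against a median of 66 bp over 3917 overlapping peak pairs in mouse. Measured to summits, the closest TSS of a protein-coding gene was that of *Lrrc52*, 28.2 kb away. *Lrrc52*, which encodes a leucine-rich repeat protein, had neither H3K4me3 nor a factor peak at its TSS.

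A TAATCC match lay in this enhancer 116 bp before the Otx2 summit, at chr1:167438462-167438467, and is the run of capitals in the Distal enhancer sequence. The Neurod1 summit lies 42 bp past the end of that sequence. No CAGATG or CAGCTG lay within 150 bp of the Neurod1 summit, where 52.3% and 39.9% of all mouse Neurod1 windows held them, while the complete Neurod1 peak held CAGATG. Across the mouse region, TAATCC lay within 150 bp of 3 of 8 Otx2 summits, against 18.3% of all Otx2 windows of that length. CAGATG and CAGCTG each lay near 1 of the 8 (22.3% and 20.7% of all windows), and AGGTCA near 0 of the 8 (17.4%). The match is a description of the letters and says nothing of binding.

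In 13LGS, Otx2, Neurod1 and H3K27ac were called together at 4 places, of which a pair of upstream enhancers and the promoter lay on elements. The farther enhancer, 95.1 kb upstream, had a Neurod1 peak of 9.69 at 101847574 to 101848497, the highest of the region, with 97.5% of the list lower. Otx2 there reached 5.52 at 101847468 to 101848578, also the highest of the 13LGS region (90.9% lower). An H3K27ac peak of 6.70 covered 3828 bp, from 101846760 to 101850587 (96.0% lower), and 4 elements. H3K4me1 at this site reached 3.40 (38.0% lower). H3K4me3 was not called.

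The nearer enhancer, 51.9 kb upstream, was broad rather than strong. A single H3K27ac peak ran 4550 bp, from 101888936 to 101893485, wider than 98.8% of the list, with a fold enrichment of 3.50 (63.3% lower). Under it lay 3 Otx2 peaks of 2.43, 2.80 and 2.39 and 2 Neurod1 peaks of 7.49 and 3.71. The Neurod1 peak of 7.49 ranked above 94.5% of its list, and none of the 3 Otx2 peaks ranked above 34.3% of theirs. The Neurod1 peak of 3.71 ran 1581 bp, wider than 99.7% of the list, and overlapped 2 of the Otx2 peaks, with summits 19 and 827 bp apart. The enhancer held 5 elements, and 4 of them overlapped both factors.

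**Figure D2:**
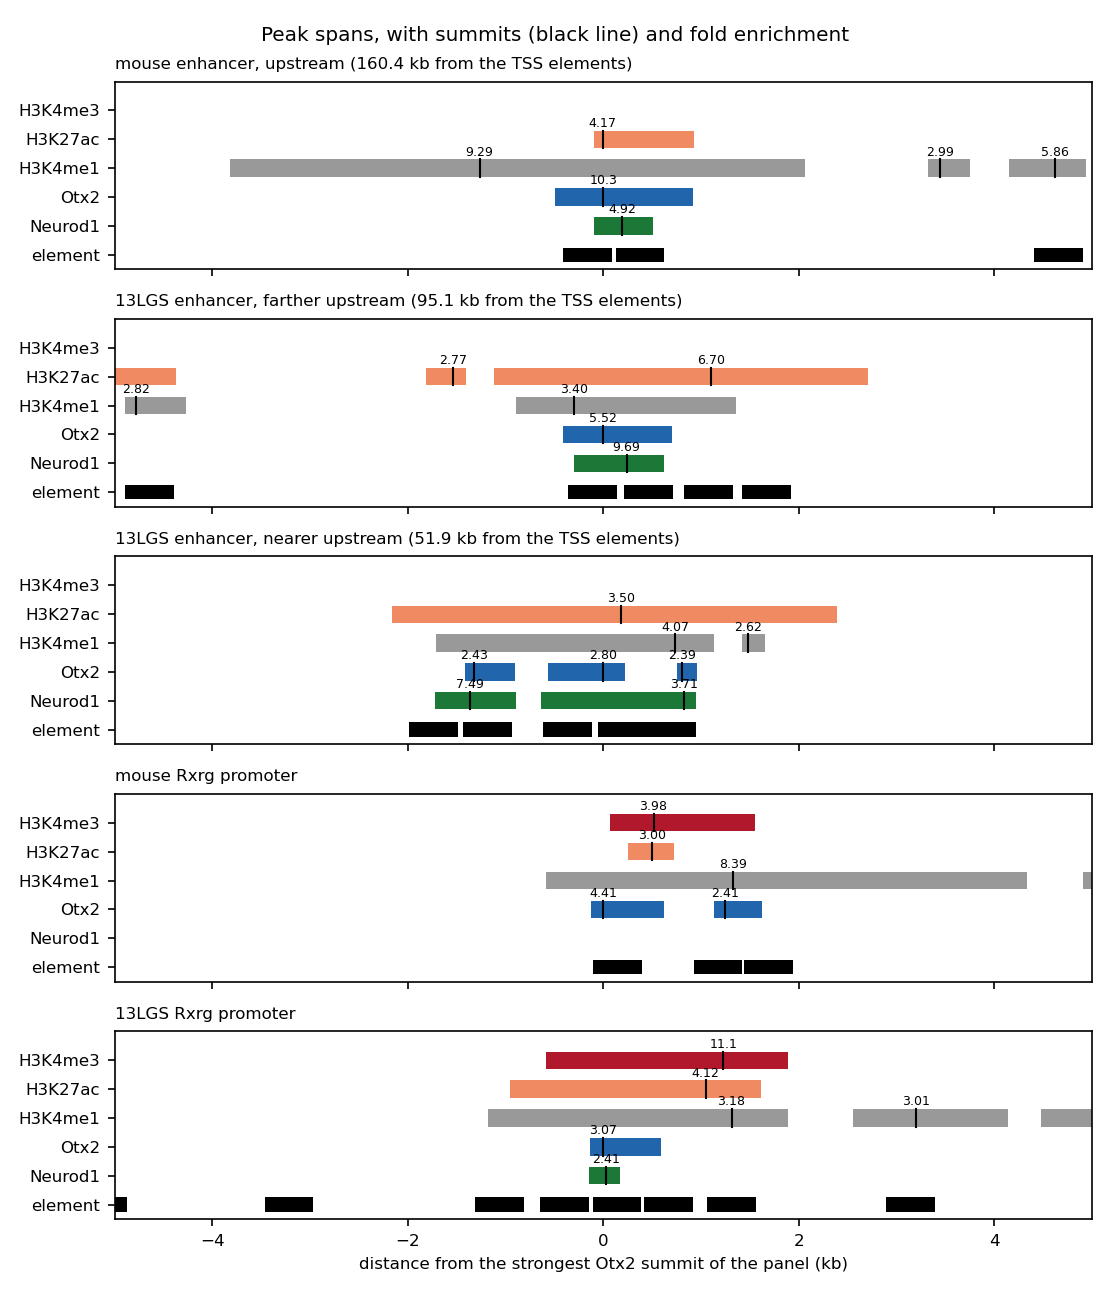
Spans of peaks within 5 kb of the strongest Otx2 summit at 3 upstream enhancers and at both *Rxrg* promoters, with summits as black lines, the fold enrichment over IgG as numbers and elements in black. The mouse enhancer has H3K27ac over 1024 bp, and the 13LGS enhancers have it over 3828 and 4550 bp.

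The order of the factors differed between these enhancers, which were not aligned between the assemblies and may not be counterparts. In mouse, Otx2 ranked above 97.6% of its list and Neurod1 above 72.7%, while at the farther 13LGS enhancer the shares were 90.9% and 97.5%. At the strongest Neurod1 peak of the nearer enhancer, the overlapping Otx2 peak ranked above only 15.7% of its list.

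The strongest H3K27ac of the 13LGS region lay in the body of *Rxrg*, with no factor called. Neighbouring peaks at 101957020 to 101959427 and 101959657 to 101962162, with summits 16.0 and 17.1 kb downstream of the TSS elements, reached 6.11 and 7.22, and 94.4% and 96.9% of the list were lower. H3K4me1 over them reached 9.23 and 11.5, the latter the highest H3K4me1 of the region (92.2% lower). Of the 10 elements in the 13LGS gene body, 6 overlapped H3K27ac, 1 of them under the promoter's H3K27ac and H3K4me3 peaks. Otx2 or Neurod1 overlapped 0 of the 10 (95% Wilson interval up to 27.8%). Mouse had no H3K27ac peak in the gene body beyond the promoter, and the mouse H3K4me1 peaks there apart from the promoter's had fold enrichments between 2.42 and 4.93.

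Some factor sites had no H3K27ac. In 13LGS, Otx2 and Neurod1 met at 101834083 to 101834441 (Otx2 3.62, Neurod1 3.67), 108.7 kb upstream, with summits 4 bp apart under H3K4me1 of 4.81. They met again downstream at 102171098 to 102171644 (3.46 and 2.37) and, on no element, at 102111781 to 102112704 (4.13 and 2.92). Otx2 peaks with H3K4me1 but without Neurod1 and H3K27ac lay 307 and 322 kb downstream, at 2.52 and 2.78. The first of these lay in an H3K4me1 peak of 10.8, the second highest of the region. Among the 5 highest H3K4me1 peaks it alone held a factor peak, the others being the gene body pair and peaks of 8.30 and 7.37, 335 kb downstream and 268 kb upstream. The remaining co-bound site, 101535249 to 101535914 and 407 kb upstream, had weak Otx2 (2.07), Neurod1 of 4.17 and H3K27ac of 2.43. The last 2 Neurod1 peaks, 403 and 80.1 kb upstream, had no Otx2 but overlapped H3K27ac of 2.20 and 4.0. The summit of the one 403 kb upstream lay outside the H3K27ac peak. The other 4 Otx2 peaks, of 2.43 to 3.21, each overlapped an H3K4me3 peak between 123.6 and 229.6 kb upstream and no element. Those at 229.6 and 202.9 kb also overlapped H3K27ac, and those at 160.4 and 123.6 kb did not. With no 13LGS annotation at hand, the genes of those H3K4me3 peaks, whose fold enrichments ran from 8.57 to 44.6, are unnamed, as are those of the 3 other upstream H3K4me3 peaks, of 4.56, 7.97 and 9.67.

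In mouse, H3K27ac without a factor was called as a pair of narrow peaks, 167505491 to 167505763 (3.03) and 167506070 to 167506475 (2.83). They lay 93.3 and 92.6 kb upstream under an H3K4me1 peak of 7.66, on no element, and 31.5% and 19.9% of the H3K27ac list were lower. The Acetylated site sequence, around the first summit, holds a CAGCTG match. Of the 4 mouse H3K27ac peaks, only that at the distal enhancer passed a −log10 q of 5, where 17 of 44 did so in 13LGS. Over the complete lists, 20505 of 62930 peaks passed it in mouse and 37361 of 93999 in 13LGS.

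The other mouse Otx2 peaks lay at or in neighbouring genes, and no data here tie any peak to a target gene. At the TSS of *Aldh9a1*, an aldehyde dehydrogenase gene, Otx2 reached 3.35 and H3K4me3 7.55, and at that of *Mgst3*, a microsomal glutathione S-transferase gene, 6.70 and 14.3. *Lmx1a*, which encodes a LIM-homeodomain factor, had no H3K4me3 peak in the region, and 3 Otx2 peaks lay at its TSS or in its introns. That at its TSS was weak (2.23, 3.83% of the list lower). The intronic peaks, 167802411 to 167803494 and 167816799 to 167817388, reached 8.49 and 4.66 (95.4% and 74.3% lower) under H3K4me1 of 5.85 and 8.87, with no H3K27ac and no Neurod1. Each holds a TAATCC match, 82 and 36 bp from its summit, written as GGATTA in Lmx1a intron site 1, where it is on the minus strand. The sequences around them are unlike in composition, with 66.2% G and C and 26 CpG in the first and 34.8% and 0 CpG in the second.

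Overlap between the lists was read against the same overlap over each complete list. In 13LGS, 9 of 15 Otx2 peaks of the region overlapped Neurod1, where 10.3% of the list did, and in mouse 1 of 8, where 13.1% did. For H3K27ac on Neurod1 the counts were 6 of 44 in 13LGS, against 3.05% of the list, and 1 of 4 in mouse, against 3.90%. With a fold enrichment of at least 2.5 in both lists, the 13LGS count fell to 2 of 33 (6.06%), against 3.17% of the list. The other overlaps in 13LGS lay near their lists, with intervals that held the list value. They were H3K27ac on Otx2 (6 of 44, list 15.5%), H3K27ac on H3K4me1 (32 of 44, list 68.5%), Otx2 on H3K27ac (8 of 15, list 55.0%), Neurod1 on Otx2 (8 of 10, list 62.5%) and Neurod1 on H3K27ac (7 of 10, list 63.6%). In mouse they were 2 of 4 (list 16.6%), 4 of 4 (list 58.9%), 2 of 8 (list 36.2%), 1 of 1 (list 82.1%) and 1 of 1 (list 52.3%) in the same order, too few to read. Peaks at an enhancer are neighbours and not independent: the 9 Otx2 peaks with Neurod1 in 13LGS stand at 7 places. Among peaks past a −log10 q of 5, 3 of 9 Otx2 peaks in 13LGS overlapped Neurod1 (33.3%), against 9.34% of the list under the same limit.

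**Figure D3:**
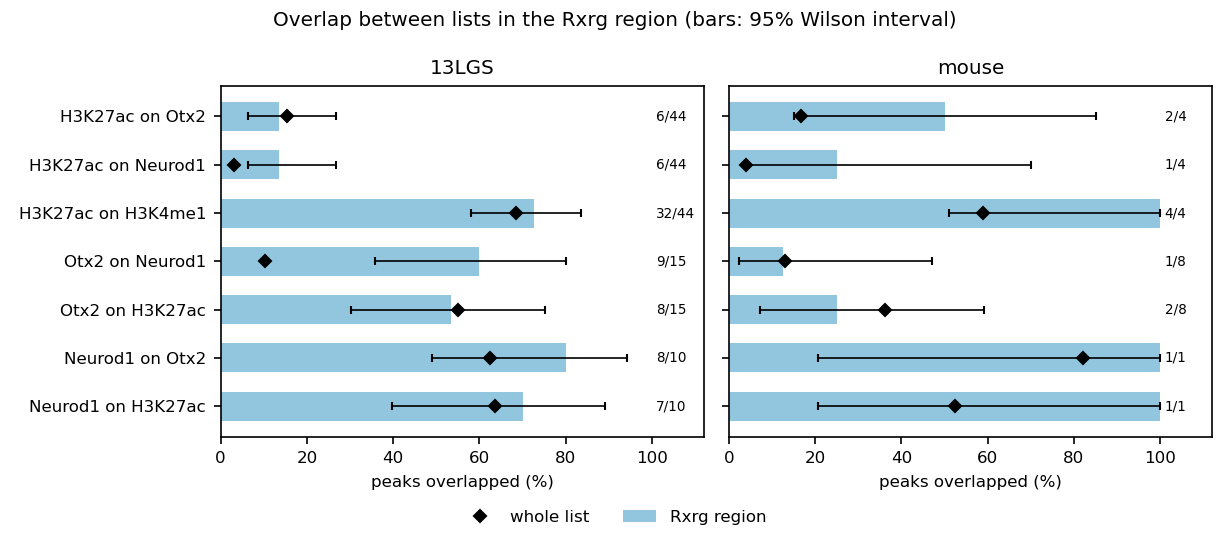
Share of the *Rxrg* region's peaks of a list that overlap another list in 13LGS (left) and mouse (right), as bars with 95% Wilson intervals and counts, beside the share over the complete list (diamonds). Otx2 on Neurod1 in 13LGS, 9 of 15, stands farthest from its list value of 10.3%, and mouse bars rest on 1 to 8 peaks.

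Read as shares of the elements assigned to *Rxrg*, the intervals of both species overlapped for every target, Neurod1 included. In 13LGS, 42 of the 74 elements lay upstream between genes and 18 downstream, and in mouse all 11 intergenic elements lay upstream. H3K27ac overlapped 30 of 74 elements in 13LGS, 40.5% (95% Wilson interval 30.1 to 51.9), from 17 distinct peaks, and 3 of 15 in mouse, 20% (7.05 to 45.2), from 2. The intervals cover counting error only, and shares over the elements of other genes were not computed. H3K4me1 overlapped 64.9% (53.5 to 74.8) and 73.3% (48.0 to 89.1), Neurod1 13.5% (7.51 to 23.1) and 13.3% (3.74 to 37.9), and Otx2 14.9% (8.51 to 24.7) and 33.3% (15.2 to 58.3). H3K4me3 overlapped 4 elements in 13LGS and 3 in mouse, all under the promoter peak. No peak of any list overlapped 21 elements in 13LGS and 4 in mouse.

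Of the *Rxrg* elements, only those with a histone mark carried a factor peak. Neither this nor the counts below were set beside the elements of other genes, so none is read as particular to *Rxrg*. In 13LGS, Otx2 or Neurod1 overlapped 9 of the 30 elements with H3K27ac (30%, interval 16.7 to 47.9), 3 of the 23 with H3K4me1 alone (13.0%, 4.54 to 32.1) and 0 of the 21 with neither (up to 15.5%). In mouse the counts were 3 of 3, 2 of 8 and 0 of 4. The 5 mouse elements with Otx2 are the pair in the distal enhancer and 3 at the promoter, and the 6 other mouse elements with H3K4me1 carried no factor. Among those 6, the element at 167442984 to 167443484 lies 155.8 kb upstream, next to the distal enhancer, under H3K4me1 of 5.86. Of the 44 H3K27ac peaks in 13LGS, 27 lay on no element. The highest of these, 4.69 at 101884452 to 101884744 and 4.50 at 101676502 to 101677682, lay 58.3 and 265.9 kb upstream with no factor and were the fourth and the fifth highest of the region.

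**Figure D4:**
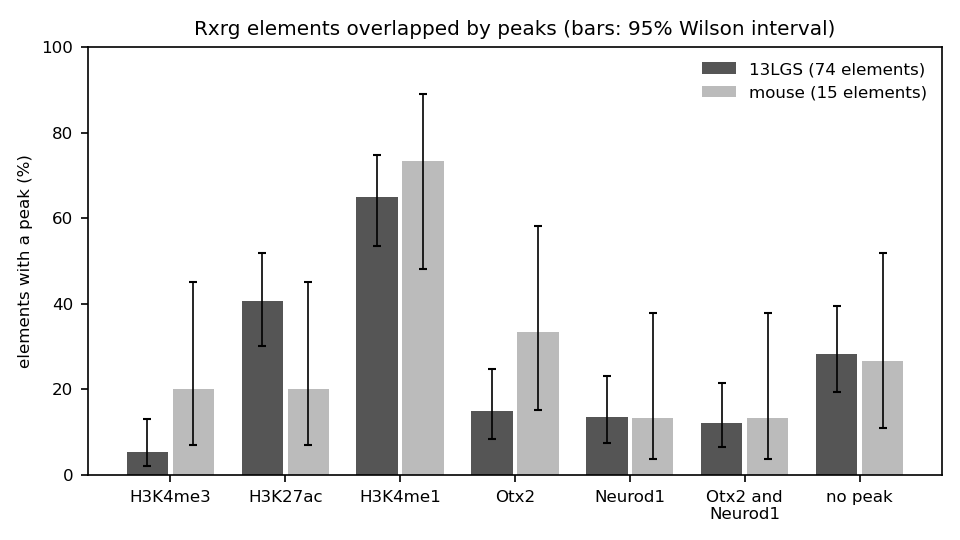
Percent of the *Rxrg* elements overlapped by a peak of each list in 13LGS (74 elements, dark) and mouse (15 elements, light), with 95% Wilson intervals. H3K27ac covers 40.5% in 13LGS and 20% in mouse, and the intervals of every pair overlap.

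The mouse promoters of genes whose products act with Rxrg were listed to place its promoter among them. The list held 16 genes, comprising the other retinoid X receptors *Rxra* and *Rxrb*, receptors that pair with them (*Thra*, *Thrb*, *Rara*, *Rarb*, *Rarg*, *Vdr*, *Nr1h2*, *Nr1h3*, *Nr4a2* and *Ppard*), and the corepressor *Ncor1* and coactivators *Ncoa1*, *Ncoa2* and *Ncoa3*. H3K4me3 lay within 500 bp of a TSS of 15 of the 16, all but *Vdr*, where 55.2% of all 21668 protein-coding genes had it. H3K4me1 marked 11 (48.7% of all genes) and H3K27ac 3 (16.2%), namely *Rara*, *Ncor1* and *Ncoa2*. Otx2 was called at 15, all but *Rxra* (48.6% of all genes), and Neurod1 at 0 (4.42%). *Rxrg* itself had the first 4 of these marks and no Neurod1.

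*Rxrg* stood low in this group for H3K4me3. Its fold enrichment of 3.98 compares with 36.6 at *Rxra*, 34.3 at *Rxrb* and 14.3 at *Thrb*, with a median of 23.2 over the 15 marked partner genes and of 17.6 over all marked genes. Only 4.25% of all marked genes were lower than *Rxrg*, and in the list only *Nr1h3*, the oxysterol receptor LXR alpha, at 3.52. For Otx2, *Rxrg* at 4.41 was above 60.7% of all genes with an Otx2 promoter peak. *Ppard* (7.70), *Ncoa2* (7.52), *Thrb* (7.29) and *Rarb* (6.96) were higher, and the other 11 lay between 2.42 and 3.81. For H3K4me1, *Rxrg* at 8.39 lay between *Thrb*, at 18.4, and *Rxra*, at 4.33.

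**Figure D5:**
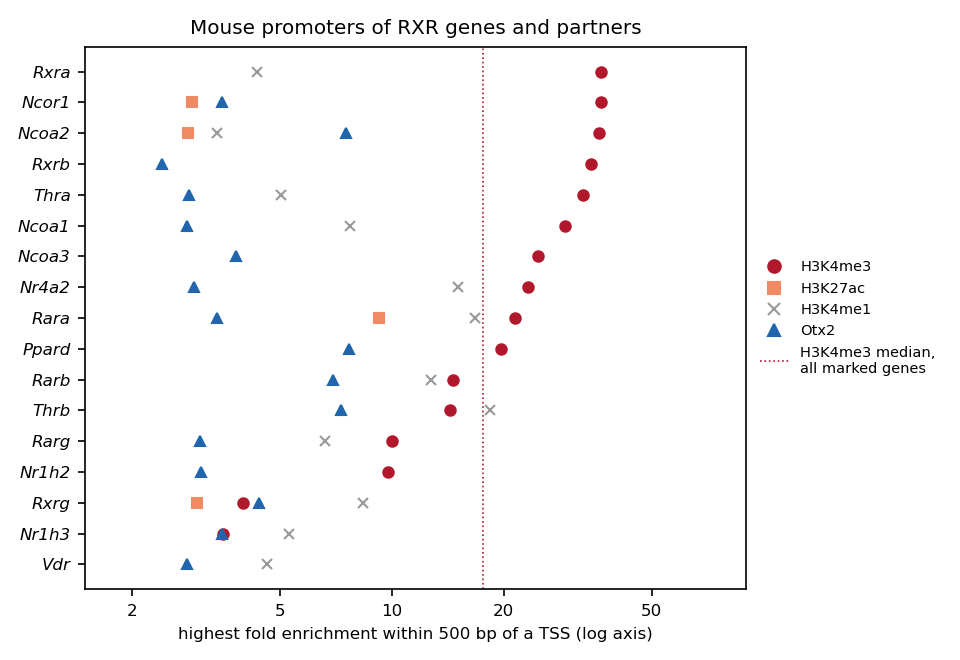
Highest fold enrichment over IgG within 500 bp of a TSS (log axis) at mouse *Rxrg* and 16 partner genes, by target, with the H3K4me3 median of all marked genes as a dotted line. H3K4me3 runs from 3.52 at *Nr1h3* to 36.6 at *Rxra*, and *Rxrg*, at 3.98, is next to the lowest.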

How the data were processed

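CUT&RUN was done on P5 13LGS and P2 mouse retina. The submitters' processing notes name Trim Galore 0.6.4 with cutadapt 3.5, Bowtie2, UMI-tools, SAMtools 1.12, MACS2 and deepTools 3.5.1. The authors aligned reads to GRCm38 or HiC_Itri_2 and called peaks per target jointly over its libraries against IgG at a q of 0.05. The fold enrichment of a peak is a ratio to IgG and its significance a −log10 q-value, both as deposited by the authors and left unscaled here. Peak totals are known but read depth is not, so precision could be given only as 95% Wilson intervals of shares. Mouse blacklist and mitochondrial regions had been removed by the authors.

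Samples were grouped by species and target. Peaks, elements and GENCODE M21 genes were intersected in Python 3.11.15 with numpy 2.4.6, an overlap being at least 1 bp, and drawn with matplotlib 3.10.9. Only protein-coding genes were used, so mouse peaks between genes may lie in non-coding genes. The code was tested on simulated intervals against bedtools 2.31.1, with 0 differences. The RefSeq GRCm38.p6 genome and promoter table were read with pysam 0.24.0, and motifs were searched within 150 bp of summits or in the 250 bases before a start. The study's labels of its elements as TSS, gene body or between genes were used, and its classes as promoters or active or poised enhancers were not. Each list is 1 joint call, and the 13LGS histone lists rest on 1 library of 1 biological replicate each, so no test was made. Named peaks are every mouse H3K4me3, H3K27ac, Otx2 and Neurod1 peak, every 13LGS Otx2 and Neurod1 peak, H3K4me3 peaks on elements and the 5 highest H3K27ac and H3K4me1 peaks, and named genes are *Rxrg*, neighbours with a peak and the partner list. Members and lists were chosen with earlier results of these data known, and part of the partner and marker lists is not reported here, for a reason unrelated to its values. Alternatives were limits on q and fold enrichment, equal list lengths, merged peaks or elements, other windows and overlaps. H3K27me3 and H3K9me3 were not analysed here.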

Additional observations from a re-analysis of the deposited data

How the results depend on the processing

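Of 162 values recomputed under the alternatives, 138 kept their direction and stayed within 1.5 times the reported count or density ratio, or within the interval of the reported share. The 13LGS over mouse ratio of Otx2 peaks per 100 kb reversed, from 1.13 to 0.906 past a −log10 q of 5 and to 0.735 by bases covered. For H3K27ac the ratio of 6.65 became 10.3 past a −log10 q of 5, 4.38 with equal list lengths and 11.1 by bases covered. The Neurod1 ratio of 6.04 became 3.63 past a −log10 q of 5, and within 100 kb it could not be formed because mouse had 0 peaks. The H3K4me3 ratio of 1.61 became 1.00 within 100 kb.

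Past a −log10 q of 5, H3K27ac overlapped 28.4% of the 13LGS elements, 33.3% of the 13LGS Otx2 peaks overlapped Neurod1, 100% of the mouse H3K27ac peaks (1 peak) overlapped Otx2 and Neurod1, and 1 partner gene had an H3K27ac promoter peak. With at least 250 bp shared, H3K27ac overlapped 6.67% of the mouse elements, and with elements within 1 kb counted once H3K4me3 overlapped 2.08% of the 13LGS elements. With a fold enrichment of at least 2.5, 6.06% of the 13LGS H3K27ac peaks overlapped Neurod1. Within 1000 bp of the TSS, 5 partner genes had H3K27ac and 1 had Neurod1. In whole peaks of the mouse region, CAGATG lay in 4 of 8 Otx2 peaks (37.9% of whole peaks of the list), 1 of 1 Neurod1 peaks (58.2%) and 2 of 4 H3K27ac peaks (39.9%). CAGCTG lay in 4 Otx2 (35.97%) and 2 H3K27ac peaks (31.6%), AGGTCA in 2 Otx2 peaks (32.2%) and TAATCC in 0 H3K27ac peaks (20.2%). These counts are too few to read against the shares. The causes were not tested, other than that longer or fewer peaks enter by construction.

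No paired analysis was possible because each list is 1 joint call over all libraries of a target and the results come from no test, so no replicate could be left out either. Peak counts of 1 to 15 for the factors limit every share, and unknown read depth limits what absence of a peak can mean.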
